A study of Mus musculus with 4 samples.

Results

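Among regulatory T (Treg) cells of the mesenteric lymph node, cells with a transcript of Ikzf2, which encodes the transcription factor Helios, were compared with cells in which none was counted. The cells were selected on 2 readouts of single-cell RNA sequencing. A cell entered when it lay in the authors' clusters 0, 3 or 6 and had at least 1 unique molecular identifier (UMI, a count of 1 captured transcript) of Foxp3. Of the 16948 cells kept by the authors, 6624 lay in these clusters, and 1997 of them had a Foxp3 UMI. Within these 1997, 1452 cells had at least 1 Ikzf2 UMI and 545 had none. These counts chose the 2 sides, so the levels of Ikzf2 and Foxp3 are given as a description only.

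The study profiled CD4 T cells of male Foxp3GFP and Foxp3CNS1- mice with 10x 3′ v3 chemistry. All mice began germ-free. The colonized groups were given the gut microbes (fecal microbiota) of SPF mice and examined 9 days later, and the germ-free groups were given none. Both strains were sorted on GFP, and each library was an equal mixture of GFP-positive and GFP-negative CD4 T cells from the pooled nodes of 3 mice. Foxp3CNS1- mice lack CNS1, a regulatory element within Foxp3 that takes part in its induction outside the thymus. The 4 groups had 1 library each: germ-free Foxp3GFP, colonized Foxp3GFP, germ-free Foxp3CNS1- and colonized Foxp3CNS1-, and values listed for the 4 libraries follow this order. No group was replicated, so the 4 libraries served as the replicates of the split between the sides, and p-values measure the spread between these pools.

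Helios is a zinc finger protein of the Ikaros family, whose members bind DNA as dimers and act within chromatin-remodelling complexes. Foxp3, encoded on the X chromosome, specifies the Treg lineage. Helios is found in most Treg cells that arise in the thymus and in fewer of those induced in the gut, and it is known for keeping the Treg program stable, so its presence has been used as a marker of origin, although activated T cells can also express it. A transcript count of 0 in a droplet does not show that a cell lacks the protein.

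Ikzf2 (chr1:69531214-69687245, minus strand, GRCm38) had between 738 and 1701 UMIs in the Foxp3 cells of a library, and its level in the cells with a UMI was 922, 825, 973 and 920 counts per 1000000 UMIs (CPM). The cells just inside the threshold, with exactly 1 Ikzf2 UMI, numbered 459, and a further 331 had 2, 229 had 3 and 433 had 4 or more. The side without an Ikzf2 UMI held 116, 156, 90 and 183 cells against 256, 373, 261 and 562 with one. Foxp3 itself stood at 447, 459, 503 and 464 CPM in the cells with an Ikzf2 UMI and at 504, 470, 539 and 521 CPM in those without. The side with an Ikzf2 UMI is called the Helios side here, and with or without Ikzf2 refers to the counted transcript only. Every Foxp3 value was lower on the Helios side of its own library, although the ranges of the 2 sides overlapped. All these cells were chosen for a Foxp3 UMI. Over all cells of clusters 0, 3 and 6, with or without a Foxp3 UMI, the order was the reverse in every library. There Foxp3 stood at 167, 204, 183 and 197 CPM with an Ikzf2 UMI and at 143, 130, 88.5 and 99.8 CPM without. Since the 2 genes chose the cells and the sides, neither order carries a test.

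An Ikzf2 UMI was found in 68.8% of the Foxp3 cells of germ-free Foxp3GFP mice (exact 95% interval 63.8% to 73.5%) and in 70.5% of those of colonized Foxp3GFP mice (66.4% to 74.4%). In Foxp3CNS1- mice the share was 74.4% in the germ-free library (69.5% to 78.8%) and 75.4% in the colonized one (72.2% to 78.5%). These intervals cover counting error only, and the share has 1 value per group, which leaves no test of colonization or genotype. After each cell had been thinned to 1500 UMIs, with 145 shallower cells left out, the shares were 53.3%, 55.1%, 60.5% and 58.1%. Both Foxp3CNS1- libraries were above both Foxp3GFP libraries with and without thinning. Within single clusters this order held as found in clusters 0 and 3 but not in cluster 6, and after thinning in none. The thinned shares were 47.0%, 52.1%, 53.4% and 50.0% in cluster 0 and 73.0%, 62.8%, 70.8% and 73.1% in cluster 3. In cluster 6 they were 50.8%, 50.0%, 58.7% and 41.8%. In naive-like cells without a Foxp3 UMI, 8.56%, 4.69%, 7.51% and 3.88% had an Ikzf2 UMI at a median depth of 2687 UMIs per cell, against 2627 in the Foxp3 cells. Cells of clusters 0, 3 and 6 in which no Foxp3 was counted had an Ikzf2 UMI in 60.4%, 54.4%, 52.7% and 53.9%.

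**Figure D1:**
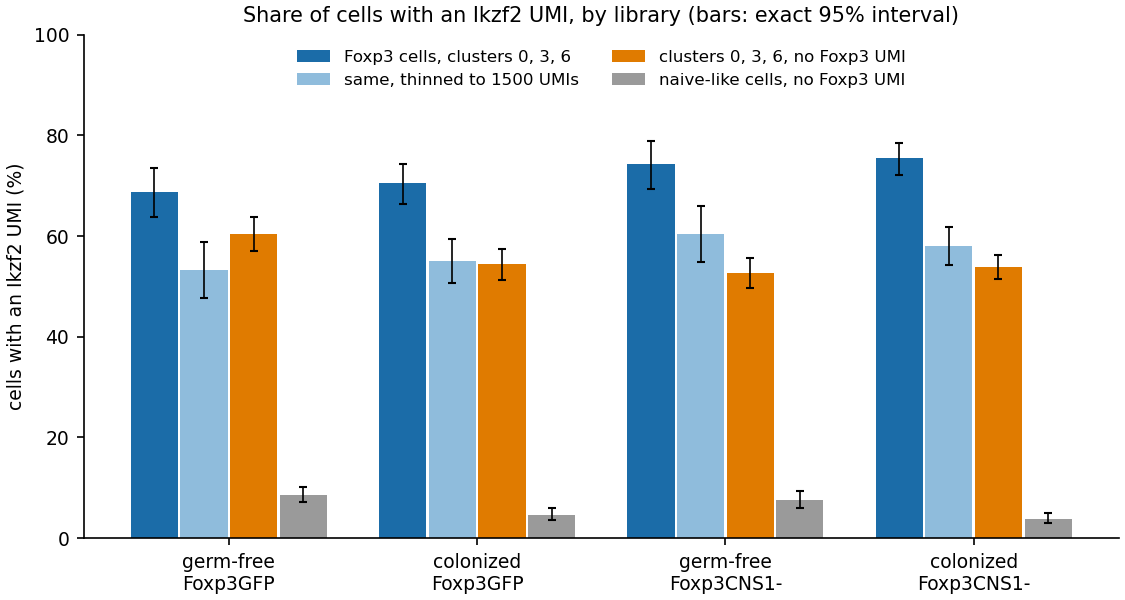
Percent of cells with at least 1 Ikzf2 UMI (vertical axis) in each of the 4 libraries, for Foxp3 cells as found and thinned, for cells of the same clusters without a Foxp3 UMI and for naive-like cells; error bars are exact 95% binomial intervals. Foxp3 cells as found lie between 68.8% and 75.4% and naive-like cells between 3.88% and 8.56%.

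An Ikzf2 UMI was not equally frequent in the authors' clusters. Of the Foxp3 cells of cluster 3, 81.4% had an Ikzf2 UMI, against 67.9% in cluster 0 and 68.1% in cluster 6. Thinned to the same depth, the shares were 70.0%, 50.6% and 49.7%. Cluster 3 held 23.8%, 38.9%, 39.5% and 47.0% of the Helios side and 17.2%, 23.7%, 25.6% and 27.9% of the other side in the 4 libraries. The mixture of clusters thus moved with the split in every library. Values from cells matched on depth within cluster are therefore given beside many of the results.

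Depth moved with the split too. The median cell with an Ikzf2 UMI held 2458.5, 3026, 2377 and 2813.5 UMIs and the median cell without one 2336, 2670.5, 2273 and 2528, ratios of 1.05, 1.13, 1.05 and 1.11. All 4 libraries had the deeper cells on the Helios side, and an exact two-sided sign-flip test gave p = 0.13, the smallest that 4 libraries allow. To set depth aside, every cell without an Ikzf2 UMI was paired with a cell with one of nearest depth from the same library, which kept 545 cells a side. The paired medians were 2318.5 and 2336, 2670 and 2670.5, 2261.5 and 2273, and 2529 and 2528 UMIs. A single cell barcode among the Foxp3 cells occurred in more than 1 library, of 157 such barcodes among all cells.

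Of 7552 genes tested by edgeR's quasi-likelihood test with the library as block, 59 were higher in the cells with an Ikzf2 UMI (0.781%) and 127 were lower (1.68%), at an adjusted p under 0.05. The higher genes included Gzma, Ccl5, Tnfrsf4, Gzmb, S100a6, Cd74 and Tnfrsf9. Ribosomal protein genes made up 74 of the 127 lower genes, and Ly6c1, Klf2 and Gbp2 were among the other 53. Within each library alone, 56 of the 59 higher genes and 106 of the 127 lower genes had the called direction in all 4, and 48 and 88 had it in the depth-matched cells as well. Of all genes tested, 4.95% had CPM values on the 2 sides that did not overlap. When counts were scaled to total UMIs without TMM normalization, 126 genes were higher and 71 lower, a share of higher calls of 64.0% in place of 31.7%, and the median over all genes moved by 0.10 on the log2 scale. Cells matched on both depth and cluster gave 21 higher and 77 lower genes, of which 19 and 75 were among the calls above. That set held 1090 cells over both sides in place of 1997, and 5453 genes were tested in it. The part of the smaller number of cells in the lost calls was not tested.

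**Figure D2:**
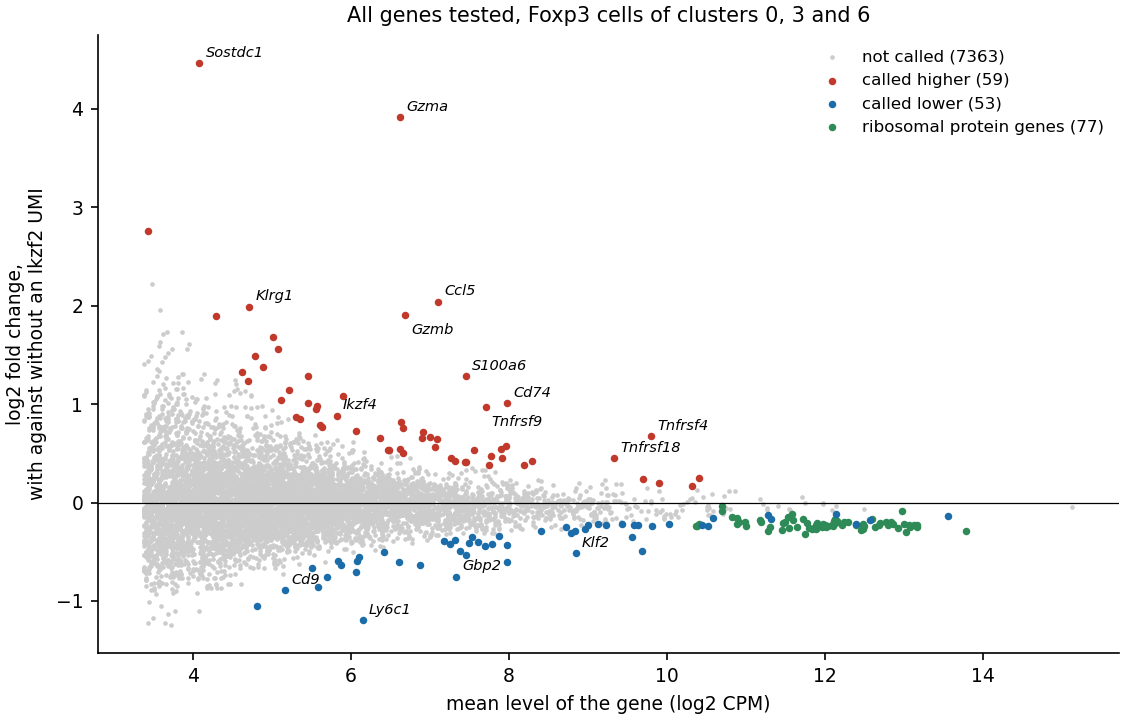
Log2 fold change between Foxp3 cells with and without an Ikzf2 UMI (vertical axis) against the mean level of each gene in log2 CPM (horizontal axis), for the 7552 genes tested. The 77 ribosomal protein genes lie just below 0 at high level, and the genes called higher lie mostly at lower level with larger differences.

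A group of 3 receptors of the TNF receptor superfamily was higher in the cells with an Ikzf2 UMI in all 4 libraries. Tnfrsf4 encodes OX40, Tnfrsf18 encodes GITR and Tnfrsf9 encodes 4-1BB, which all deliver costimulation and are typical of activated Treg cells. The 3 genes lie on chromosome 4, Tnfrsf4 at chr4:156013843-156016612 and Tnfrsf18 close to it at chr4:156026164-156028895, and Tnfrsf9 at chr4:150914562-150946102, all on the plus strand of GRCm38 in the GENCODE annotation. RefSeq places its starts of all 3 genes at other positions, so the Tnfrsf9 stretch below lies within the GENCODE gene. The 250 bases before the RefSeq start of Tnfrsf18 run to chr4:156026321, past its GENCODE start, and its stretch below ends before that start. Sequences before the RefSeq starts are shown because the 3 genes were higher together. Each is the longest stretch of the 250 bases before a RefSeq start that overlaps no exon in the annotation, written 5′ to 3′, with motif matches in capitals.
Tnfrsf4 (chr4:156013611-156013694, + strand): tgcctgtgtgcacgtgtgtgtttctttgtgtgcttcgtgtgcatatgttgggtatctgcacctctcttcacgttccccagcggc
Tnfrsf18 (chr4:156026072-156026163, + strand): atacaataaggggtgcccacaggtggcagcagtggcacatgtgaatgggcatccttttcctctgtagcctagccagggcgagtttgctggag
Tnfrsf9 (chr4:150919905-150920154, + strand): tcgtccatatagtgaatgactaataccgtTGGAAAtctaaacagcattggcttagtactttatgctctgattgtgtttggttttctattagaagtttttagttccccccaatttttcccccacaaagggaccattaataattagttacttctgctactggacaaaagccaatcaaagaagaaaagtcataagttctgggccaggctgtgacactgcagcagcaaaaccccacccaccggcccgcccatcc
The letters of 4 motifs were searched on both strands of the 250 bases: AP-1 (TGANTCA), NF-kB (GGG, any 2 bases, TTTCC), NFAT (TGGAAA) and the Ikaros family (TGGGAA). The only match inside the printed stretches was 1 NFAT motif, in that of Tnfrsf9. The full window of Tnfrsf4 held 1 NFAT match as well, that of Tnfrsf18 held none of the 4 motifs, and that of the other RefSeq start of Tnfrsf9 held 1 AP-1, 1 NF-kB and 1 Ikaros family match, the last 2 overlapping. Over all 32851 RefSeq start windows of this length, 6.75% held the AP-1 motif, 1.41% the NF-kB motif, 18.6% the NFAT motif and 21.6% the Ikaros family motif, so these matches are a description of the letters.

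Tnfrsf4 stood at 851, 972, 1089 and 1171 CPM in the cells with an Ikzf2 UMI and at 480.3, 573, 561 and 733 CPM in those without. The 2 ranges did not overlap. Its log2 fold change was 0.68 ± 0.06 (SE; adjusted p = 4.2e-19), and 0.51 in cells matched on depth and cluster (adjusted p = 3e-09).
Tnfrsf18 stood at 579, 681, 669 and 861 CPM with an Ikzf2 UMI and at 354, 470.1, 428 and 631 CPM without. It was higher on the Helios side of every library, but the colonized Foxp3CNS1- cells without Ikzf2 exceeded the germ-free Foxp3GFP cells with it. The log2 fold change was 0.45 ± 0.07 (adjusted p = 3.6e-08), and 0.42 in cells matched on depth and cluster (adjusted p = 5.6e-05).
Tnfrsf9 stood at 172.5, 215, 224 and 309 CPM with an Ikzf2 UMI and at 90.1, 118, 143 and 110.1 CPM without, with no overlap. The log2 fold change was 0.97 ± 0.12 (adjusted p = 3e-11), and 0.86 in cells matched on depth and cluster (adjusted p = 4.6e-07). These 3 genes also passed with DESeq2 and with limma. Tnfrsf1b, the gene of TNF receptor 2, which drives Treg expansion, was higher by 0.54 ± 0.15 (adjusted p = 0.025) but did not pass in the matched cells (adjusted p = 0.36). In all, 4 of the 15 tested genes of the TNF receptor list were higher and none was lower, with a median log2 fold change of 0.04 against -0.01 over all genes tested. Cd27 (0.04), Traf1 (0.01) and Tnfrsf25 (-0.10) were among the 11 that did not pass. For this list and those below, the background over all genes tested was 0.781% higher and 1.68% lower. Some genes belong to more than 1 list.

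**Figure D3:**
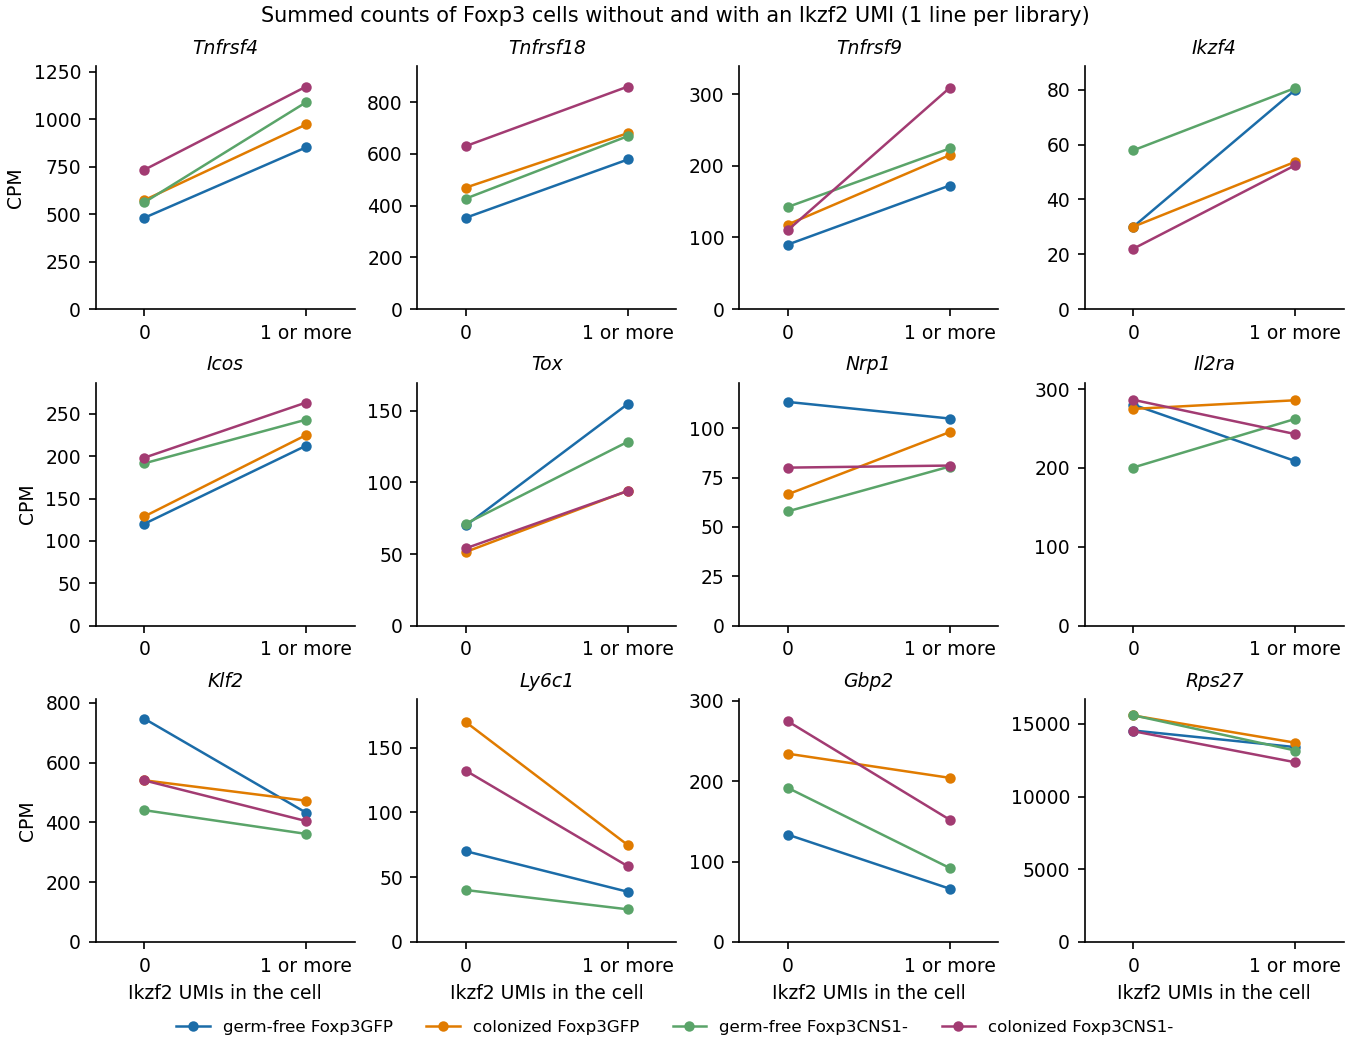
CPM of 12 genes (vertical axes, from 0) in the summed Foxp3 cells without and with an Ikzf2 UMI (horizontal axis), with 1 line per library. The lines of Tnfrsf4, Tnfrsf18, Tnfrsf9, Ikzf4, Icos and Tox rise in all 4 libraries, those of Klf2, Ly6c1, Gbp2 and Rps27 fall in all 4, and those of Nrp1 and Il2ra go both ways.

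Of the other Ikaros family genes, only Ikzf4 passed the test. Ikzf4 encodes Eos, a partner of Foxp3 in gene repression, and stood at 80.0, 53.7, 80.6 and 52.5 CPM in the cells with an Ikzf2 UMI and at 30.02, 30.06, 57.9 and 22.0 CPM in those without. It was higher in each of the 4 libraries, by 0.88 ± 0.21 on the log2 scale (adjusted p = 0.00367), and by 1.01 in cells matched on depth and cluster (adjusted p = 0.0065). Ikzf1, the gene of Ikaros, had a log2 fold change of -0.19 ± 0.13 (adjusted p = 0.689), Ikzf3, that of Aiolos, -0.04 ± 0.16 (adjusted p = 0.976), and Ikzf5, that of Pegasus, -0.72 ± 0.33 (adjusted p = 0.372).

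Genes linked in earlier work to Helios-expressing or thymus-derived Treg cells did not move as a block. Of 13 listed genes 11 were tested, and 4 were higher (Tnfrsf9, Cd83, Pdcd1 and Ikzf4), none was lower and 7 did not pass, with a median log2 fold change of 0.71. Cd83, a membrane glycoprotein that stabilizes activated Treg cells, stood at 164, 71.6, 209 and 132 CPM with an Ikzf2 UMI and at 96.7, 38.6, 134 and 68.1 CPM without. Its difference was 0.71 ± 0.14 (adjusted p = 0.000121) and fell to 0.37 in cells matched on depth and cluster (adjusted p = 0.55). Pdcd1, the gene of the inhibitory receptor PD-1, stood at 63.7, 36.6, 71.8 and 42.7 CPM against 13.3, 12.9, 44.5 and 16.02 CPM, a difference of 1.28 ± 0.26 (adjusted p = 0.000171). In cells matched on depth and cluster it was 0.89 (adjusted p = 0.25).
Nrp1, the gene of neuropilin-1, a surface receptor used as a marker of thymus-derived Treg cells, stood at 104.99, 98.1, 80.6 and 81.1 CPM with an Ikzf2 UMI and at 113, 66.6, 57.9 and 80.1 CPM without. The ranges overlapped and the log2 fold change of 0.10 ± 0.15 did not pass (adjusted p = 0.912). Gpr83, an orphan receptor of Treg cells, had a difference of -0.04 ± 0.11 (adjusted p = 0.953), and Lrrc32, the gene of GARP, which holds latent TGF-beta on the cell surface, -0.08 ± 0.12 (adjusted p = 0.908). Itgb8, whose integrin activates TGF-beta, stood higher in every library and did not overlap between the sides (20.0, 21.02, 44.1 and 30.8 CPM against 3.34, 8.59, 17.8 and 18.0). Its difference of 1.08 ± 0.34 missed the threshold (adjusted p = 0.0597), while the depth-matched cells gave 1.28 (adjusted p = 0.0385). Swap70, a regulator of actin, had 0.85 ± 0.27 (adjusted p = 0.0723).

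The core Treg genes were divided. Both sides carried them, with a summed level of 4837 to 6049 CPM with an Ikzf2 UMI and 4236 to 5072 CPM without. Of 14 tested, 5 were higher (Tnfrsf4, Tnfrsf18, Cd83, Itgae and Ikzf4), none was lower, and the median log2 fold change was 0.20. Il2ra, the high-affinity interleukin-2 receptor chain and a defining Treg marker, stood at 209, 286, 262 and 243 CPM with an Ikzf2 UMI and at 280.2, 275, 200.5 and 286 CPM without, which gave a difference of -0.18 ± 0.09 (adjusted p = 0.469). Ctla4, the inhibitory receptor through which Treg cells remove costimulatory ligands, stood at 205, 252, 273 and 241 CPM against 133, 165, 200.5 and 218 CPM. It was above its partner value in each of the 4 libraries, with a difference of 0.32 ± 0.10 that did not pass (adjusted p = 0.0772), while the depth-matched cells gave 0.47 (adjusted p = 0.0059). Izumo1r, the gene of folate receptor 4, had -0.08 ± 0.05 (adjusted p = 0.521), and Entpd1, that of the ectonucleotidase CD39, -0.10 ± 0.30 (adjusted p = 0.970).

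Genes linked to peripherally induced Treg cells were not lower as a group in the cells with Ikzf2. Of 10 tested, 4 were higher (Gzmb, Lag3, Itgae and Maf) and 1 was lower (Igfbp4), with a median log2 fold change of 0.48. Maf, a transcription factor of gut-induced Treg cells, stood at 202.5, 178, 255 and 160.1 CPM with an Ikzf2 UMI and at 120.1, 120.2, 160.4 and 138 CPM without, a difference of 0.41 ± 0.11 (adjusted p = 0.0218). Itgae, the gene of the integrin chain CD103, stood at 94.99, 146, 155 and 169 CPM against 86.7, 88.0, 93.6 and 96.1 CPM, a difference of 0.57 ± 0.13 (adjusted p = 0.0022). Neither passed in cells matched on depth and cluster, where Maf had 0.19 (adjusted p = 0.78) and Itgae 0.40 (adjusted p = 0.37). Il10, an inhibitory cytokine gene, had 1.17 ± 0.47 (adjusted p = 0.265), Ccr9 0.16 ± 0.18 (adjusted p = 0.851) and Dapl1 -1.10 ± 0.34 (adjusted p = 0.0565). Lag3 lost its direction in part of the depth-matched libraries, being higher in 2 of 4. DESeq2 called none of the 10.

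Of 21 tested effector Treg genes 10 were higher and none lower, with a median log2 fold change of 0.48. Over all genes tested 0.781% were higher and 1.68% lower, with a median of -0.01. Tnfrsf9, Itgae and Gzmb were also counted in lists above, so the lists are not separate results. Icos, a costimulatory receptor that sustains effector Treg cells, stood at 212.5, 225, 243 and 263 CPM with an Ikzf2 UMI and at 120.1, 129, 192 and 198 CPM without, with no overlap and a difference of 0.48 ± 0.11 (adjusted p = 0.000884). S100a6, a calcium-binding protein gene of activated cells, stood at 124, 221, 117 and 287 CPM against 60.0, 55.8, 49.0 and 128 CPM, a difference of 1.28 ± 0.13 (adjusted p = 1.88e-14). It was the effector gene with the smallest adjusted p apart from Gzmb, and it also passed in cells matched on depth and cluster (0.78, adjusted p = 0.00058). Klrg1, a receptor of terminally differentiated cells, had UMIs in 65 cells with Ikzf2 and 8 without, and stood at 23.7, 27.3, 45.4 and 27.0 CPM against 0, 0, 13.4 and 14.02 CPM (difference 1.99 ± 0.40, adjusted p = 0.000171). S100a4 was higher by 1.56 ± 0.31 (adjusted p = 0.000139), with UMIs in 91 and 16 cells. In cells matched on depth and cluster, 4 of 17 tested effector genes were higher and none lower.

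**Figure D4:**
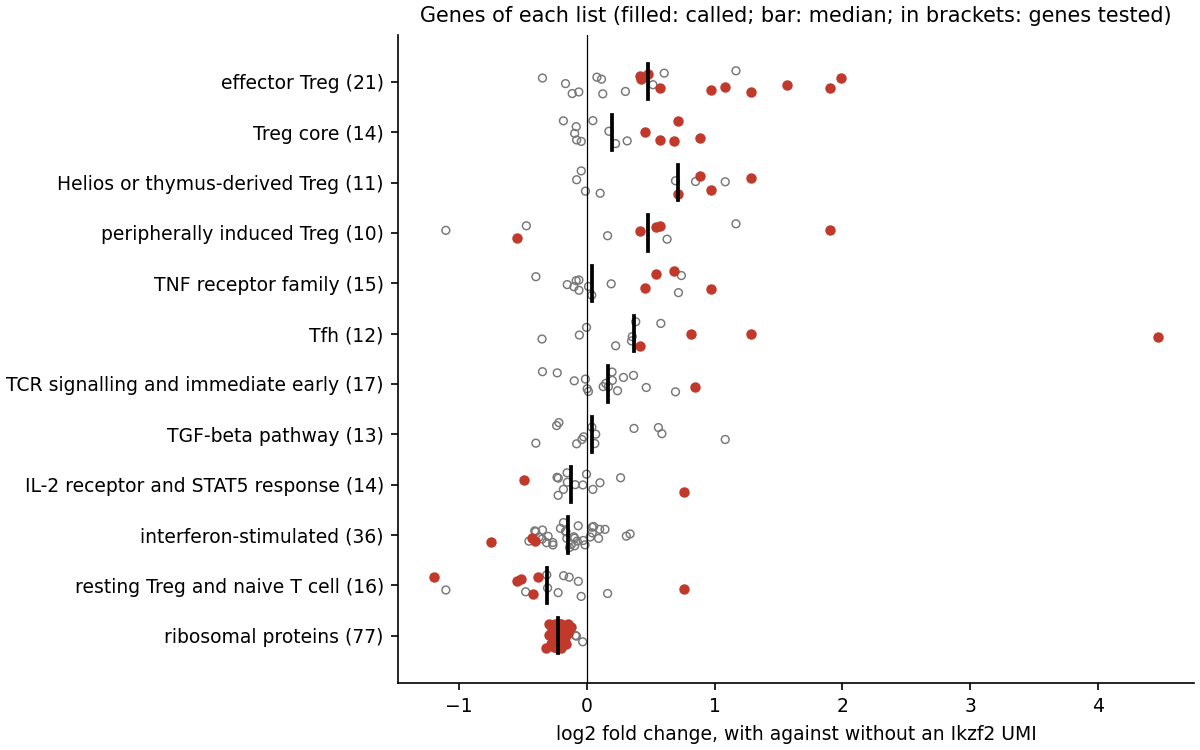
Log2 fold change of every tested gene (horizontal axis) in 12 gene lists (vertical axis); filled points passed the test, and black bars are medians. Effector Treg genes have a median of 0.48, resting and naive genes of -0.31 and ribosomal protein genes of -0.22.

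Resting-cell genes leaned lower on the Helios side, with 14 below 0 and 2 above. Their summed level was 2036 to 2307 CPM with an Ikzf2 UMI and 2397 to 2732 CPM without. Of 16 tested resting Treg and naive T cell genes, 5 were lower in the cells with an Ikzf2 UMI (Ly6c1, Klf2, Foxp1, Ccr7 and Igfbp4) and 1, Il7r, was higher, while 10 did not pass, with a median log2 fold change of -0.31. In cells matched on depth and cluster 1 was lower and 1 higher of the 16, with a median of -0.11, and DESeq2 called 2 lower and none higher. Ly6c1, a surface protein of resting and memory-type T cells, stood at 38.7, 74.8, 25.2 and 58.4 CPM with an Ikzf2 UMI and at 70.0, 169.6, 40.1 and 132 CPM without. The difference was -1.19 ± 0.15 (adjusted p = 2.83e-10), and every library had the lower value on the Helios side, although both sides were higher in the colonized libraries. In the depth-matched cells it was lower in 3 of 4. Klf2, a transcription factor that keeps lymph node homing receptors on, stood at 432, 473, 362 and 405 CPM against 747, 541, 441 and 541 CPM, a difference of -0.52 ± 0.07 (adjusted p = 4.08e-09). Within matched clusters it was -0.25 (adjusted p = 0.11), while Ly6c1 was still lower (-0.69, adjusted p = 0.0096). Foxp1, which maintains T cell quiescence, was lower by 0.42 on the log2 scale, at 265, 192, 233 and 179 CPM against 337, 240.4, 289.6 and 220.2 CPM (SE 0.09, adjusted p = 0.000897). Its matched value within clusters was -0.23 (adjusted p = 0.53). Il7r, the receptor chain for interleukin-7, went the other way: 90.0, 104, 113 and 130 CPM against 56.7, 73.0, 53.5 and 58.1 CPM, with no overlap and a difference of 0.76 ± 0.16 (adjusted p = 0.000233), and 0.72 in cells matched on depth and cluster (adjusted p = 0.013). Lef1 (-0.18), Tcf7 (-0.07) and Satb1 (-0.05), transcription factors of naive T cells, did not pass.

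A few interferon-inducible genes were lower on the Helios side. Of 36 tested genes of the interferon list, Gbp2, Ifi47 and Igtp were lower, none was higher, and the median log2 fold change was -0.15. Gbp2, a guanylate-binding GTPase of host defence, stood at 66.2, 204, 92.0 and 152 CPM with an Ikzf2 UMI and at 133, 234, 192 and 274 CPM without, a difference of -0.75 ± 0.11 (adjusted p = 2.27e-08), and of -0.75 in cells matched on depth and cluster (adjusted p = 1e-05). Ifi47 stood at 165, 253, 204 and 281 CPM against 223.5, 319.9, 312 and 312 CPM, a difference of -0.43 ± 0.09 (adjusted p = 0.000354). Isg15, a ubiquitin-like protein induced by type I interferon, had -0.14 ± 0.11 (adjusted p = 0.768). In the cells of the same clusters without a Foxp3 UMI, Gbp2 had 0.22 and Ifi47 0.04, so their lower level was not found there.

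Ribosomal protein genes shifted together by a small amount. Of 77 tested, 74 were lower in the cells with an Ikzf2 UMI and none was higher, with a median log2 fold change of -0.22. Rpl41 (-0.09), Rpl28 (-0.08) and Rps12 (-0.03) did not pass. In cells matched on depth and cluster 59 of the 77 were lower, with a median of -0.16. Within single clusters 19 were lower in cluster 0, 45 in cluster 6 and 1 in cluster 3, where 54 of the 77 were below 0. Together the 77 genes took 35.3%, 35.9%, 33.0% and 33.4% of UMIs on the Helios side and 38.2%, 38.8%, 37.1% and 36.1% on the other. In the depth-matched cells the Helios side had 34.5%, 36.05%, 32.5% and 32.2%. Rps27 stood at 13405, 13708, 13171 and 12363 CPM against 14547, 15579, 15597 and 14500 CPM, with no overlap (-0.29 ± 0.03, adjusted p = 4.68e-17). Scaled to total UMIs without TMM, 51 of the 77 were lower and none was higher, with 74 of 77 below 0 and a median of -0.12. CPM are shares of a total, so all fold changes here are relative to the other genes.

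By the rule for the largest changes, which asked for the same direction in all 4 libraries with and without depth matching, 12 higher genes were named. Besides Klrg1, S100a4, S100a6 and Pdcd1 these were Sostdc1, Actg2, Ccl5, Il1r2, Mbnl3, Nufip2, Tnfsf11 and Bcl2a1d. Ccl5, a chemokine gene of cytotoxic and effector T cells, stood at 199.97, 123, 151 and 201 CPM with an Ikzf2 UMI and at 83.4, 10.7, 44.5 and 34.0 CPM without, had UMIs in 240 and 33 cells, and differed by 2.04 ± 0.17 (adjusted p = 6.21e-20), and by 1.64 in cells matched on depth and cluster (adjusted p = 1.03e-11). Il1r2, the decoy receptor for interleukin-1, stood at 24.997, 23.4, 63.0 and 39.5 CPM against 0, 6.44, 49.0 and 2.002 CPM (1.68 ± 0.35, adjusted p = 0.000245). Without an Ikzf2 UMI, 6.44 CPM stands for 3 UMIs and 2.002 CPM for 1 UMI, so these values lie near the floor. Tnfsf11, the gene of RANKL, had 1.23 ± 0.35 (adjusted p = 0.0244). Mbnl3, a splicing regulator, had 1.49 ± 0.35 (adjusted p = 0.00282), Nufip2, an RNA-binding protein gene, 1.32 ± 0.36 (adjusted p = 0.0146), and Bcl2a1d, a survival gene of the Bcl-2 family, 1.14 ± 0.28 (adjusted p = 0.00399).
Sostdc1, a secreted inhibitor found in follicular T cells, rested on few cells: 90 UMIs in 19 cells with Ikzf2 and 1 UMI in 1 cell without, a CPM ratio of 28.4 with an exact counting interval of 4.96 to 1133. Actg2, a smooth muscle actin gene, had 50 UMIs against 2 (ratio 7.88, interval 2.07 to 66.8). Such intervals leave out the spread between cells. Of the 12 named higher genes, only Ccl5 and S100a6 also passed with DESeq2, which gave no adjusted p for the other 10, and 10 of the 12 passed with limma. In cells matched on depth and cluster 9 of them were tested, all 9 were above 0 and 2 passed. In thinned cells 10 were tested, all 10 were above 0 and 3 passed.

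The 12 named lower genes were Cd9, Trim8, Gbp2, 9930111J21Rik2, Me2, Kbtbd11, Klf2, Phb, Thy1, Ifi47, Foxp1 and Arl4c. Their differences were smaller than those of the named higher genes, from -0.89 to -0.42. Cd9, a tetraspanin membrane protein gene, stood at 34.995, 22.6, 32.8 and 28.7 CPM with an Ikzf2 UMI and at 50.0, 36.5, 40.1 and 66.1 CPM without (-0.89 ± 0.22, adjusted p = 0.00431). Thy1, a glycoprotein of the T cell surface, stood at 206, 197, 193 and 188 CPM against 274, 264, 205 and 238 CPM (-0.44 ± 0.10, adjusted p = 0.000674). Trim8, a ubiquitin ligase gene, had -0.76 ± 0.18 (adjusted p = 0.00365), and Me2, the mitochondrial malic enzyme gene, -0.63 ± 0.18 (adjusted p = 0.022). 9930111J21Rik2 had -0.64 ± 0.12, Kbtbd11 -0.61 ± 0.14, Phb, the prohibitin gene, -0.50 ± 0.14 and Arl4c, a small GTPase gene, -0.42 ± 0.11. All 12 were below 0 in the cells matched on depth and cluster, where 6 passed. In depth-matched cells 7 passed, in thinned cells 4, with DESeq2 4 and with limma 9, and all 12 were below 0 in each.

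Markers of other cell types moved with the split. Of the CD8 T cell and NK cell list 5 of 11 genes were tested, and Gzma, Ccl5 and Nkg7 were higher. The summed level of the list ran from 249 to 546 CPM on the Helios side and from 53.7 to 156 CPM on the other. Its defining genes Cd8a (0.14 ± 0.39, adjusted p = 0.966) and Cd8b1 (-0.15 ± 0.30, adjusted p = 0.946) did not pass. Gzma, the gene of granzyme A, had UMIs in 53 cells with Ikzf2 and 4 without, at 2.50, 111, 11.3 and 252 CPM against 0, 0, 8.91 and 18.0 CPM, so nearly all of it lay in the colonized libraries. Its adjusted p was 5.47e-25 with edgeR and 0.27 with limma. Gzmb, the gene of granzyme B, showed the same pattern at 8.75, 167, 2.52 and 206 CPM against 0, 25.8, 4.45 and 66.1 CPM (adjusted p = 5.14e-15 with edgeR and 0.10 with limma).
Of the B cell list 5 of 13 genes were tested, and Cd74 and Ighm were higher. Cd74, the invariant chain of MHC class II, stood at 234, 256, 297 and 361 CPM against 56.7, 127, 192 and 166 CPM (1.01 ± 0.11, adjusted p = 1.74e-13), and differed by 0.92 in cells matched on depth and cluster (adjusted p = 1.3e-09). The summed level of the B cell list ran from 1674 to 2180 CPM on the Helios side and from 1248 to 1622 CPM on the other. Follicular helper T cell genes had 4 higher and none lower of 12 tested (Sostdc1, Tox, Pdcd1 and Batf), with a summed level of 849 to 1213 CPM against 603 to 904 CPM. Tox, a transcription factor of chronically stimulated T cells, stood at 155, 94.2, 129 and 94.1 CPM against 70.0, 51.5, 71.3 and 54.1 CPM, with no overlap (0.81 ± 0.16, adjusted p = 6.4e-05), and differed by 0.71 in cells matched on depth and cluster (adjusted p = 0.02). In cells matched on depth and cluster 2 of 4 tested genes of the CD8 and NK list, 2 of 5 of the B cell list and 1 of 8 of the follicular list were higher. The part of other cell types in these results was not tested.

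Other pathways gave few or no calls. Of the T cell receptor signalling and immediate early list, Nfkbid was higher among 17 tested. Of the interleukin-2 receptor and STAT5 list, Il7r was higher and Socs3 lower among 14. The TGF-beta pathway had no call among 13 genes, the cell cycle none among 11, the Th17 genes none among 5 and the heat shock genes none among 9. Of the glycolysis list, Tpi1 was higher among 14, and of the homing list Itgae was higher and Ccr7 lower among 19. The 66 T cell receptor variable segments were all below the count minimum.

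Among cells with an Ikzf2 UMI, several levels rose further with the number of Ikzf2 UMIs. Tnfrsf4 over all libraries stood at 606 CPM in cells with 0 Ikzf2 UMIs, 783 with 1, 935 with 2, 1014 with 3 and 1322 with 4 or more. Tnfrsf9 stood at 114, 162, 204, 202 and 350 CPM in the same order, and Ly6c1 at 117, 81.3, 49.2, 63.7 and 32.2 CPM. The median depth rose as well, from 2458 UMIs per cell with 0 and 2479 with 1 to 2514, 2810 and 3303, so these values are a description. Requiring at least 2 Ikzf2 UMIs against 0 gave 80 higher and 134 lower genes.

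**Figure D5:**
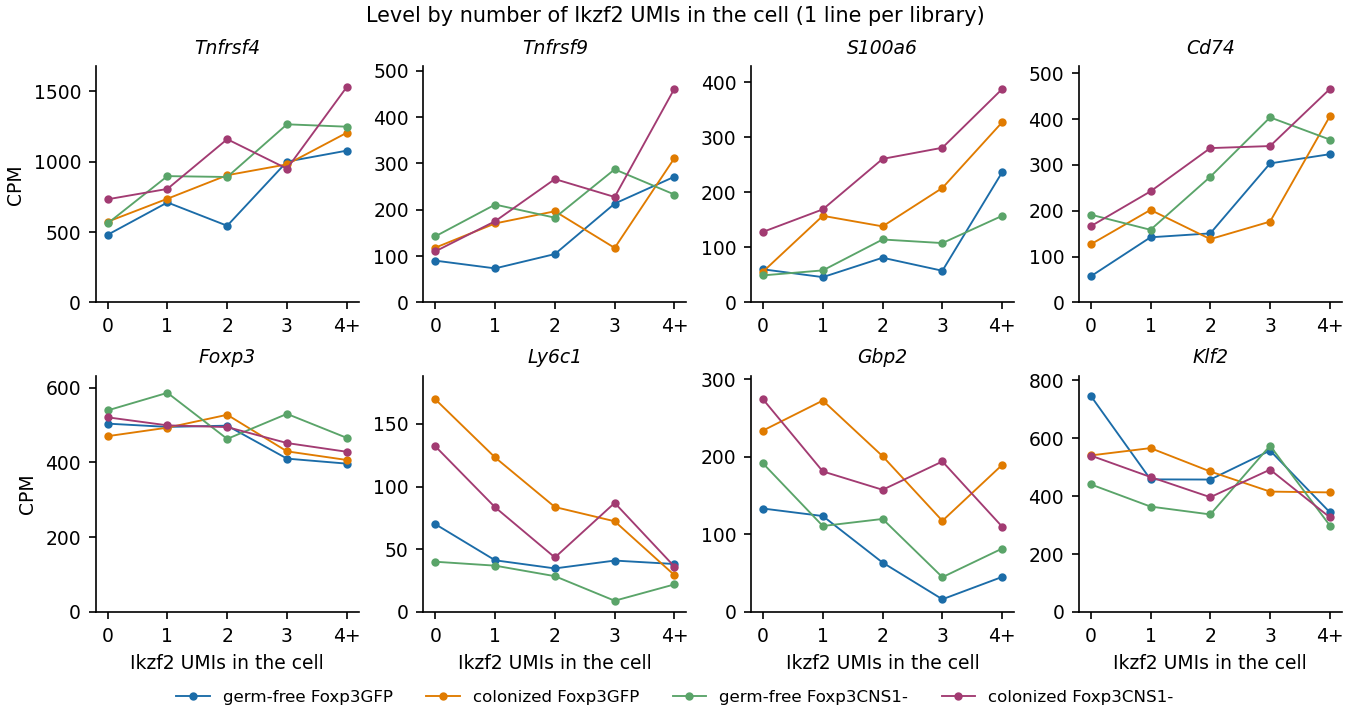
CPM of 8 genes (vertical axes, from 0) in Foxp3 cells grouped by the number of Ikzf2 UMIs in the cell (horizontal axis), with 1 line per library. Tnfrsf4 rises from 606 to 1322 CPM over all libraries and Ly6c1 falls from 117 to 32.2 CPM, and Foxp3 goes from 504 to 424 CPM. Every cell shown was chosen for a Foxp3 UMI.

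The split was then compared in the other cells of the same clusters, in which no Foxp3 was counted: 2543 with and 2084 without an Ikzf2 UMI. There 349 genes were higher (3.89% of 8966 tested) and 252 lower (2.81%). Of the 59 higher and 127 lower calls of the Foxp3 cells, 35 and 46 were called in the same direction there. A further 3 genes were called in opposite directions. All 14 tested core Treg genes were higher, with a median log2 fold change of 0.996, against 5 of 14 and a median of 0.20 in the Foxp3 cells. Il2ra had 0.99 there, Gpr83 1.05, Lrrc32 1.09 and Entpd1 1.03, and none of these passed in the Foxp3 cells. Ribosomal protein genes were lower in 33 of 77. The difference between the 2 sets of cells was not tested. A Foxp3 UMI was itself more frequent in cells with an Ikzf2 UMI: 32.8%, 40.9%, 31% and 38.4% of those cells of the 3 clusters had one, against 25.3%, 25.7%, 14.7% and 19.2% of cells without Ikzf2. At 1500 UMIs per cell the shares were 21.9%, 26.9%, 23.6% and 24.6% against 19.3%, 18.6%, 11.8% and 14.6%.

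Whether the split depended on the microbiota or on CNS1 was tested as an interaction, with the other factor's 2 levels as the replicates. The difference between colonized and germ-free libraries passed for 2 genes (0.0265%). The stem cell antigen gene Ly6a, which interferon induces, stood at 126, 552, 99.5 and 568 CPM with an Ikzf2 UMI and at 207, 685, 236 and 459 CPM without, so the Helios side was lower in both germ-free libraries, lower in colonized Foxp3GFP and higher in colonized Foxp3CNS1-. Its interaction was 0.96 ± 0.20 (adjusted p = 0.00633). The other gene, Penk, which encodes an opioid peptide precursor, rested on 3 cells of 1 library. By genotype no gene passed with edgeR (0%), where 359 had an unadjusted p under 0.05, nor with DESeq2, where 5 did. In a simulation of the main test on 7523 genes, 26.5% of genes changed 1.5-fold and 59.8% of those changed 2-fold were recovered, and the interactions have fewer libraries a side.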

How the data were processed

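The deposited matrix holds UMI counts per gene and cell, and the authors' cell table gives library, filter and cluster. Per the submitters' processing notes, Cell Ranger, Scanpy 1.5.1 and mm10 were used. Of 17478 cells, 227 absent from the cell table and 303 removed by the authors were left out, and 3 columns of the cell table were not used. No doublet caller was run here.

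UMIs were summed per library and side (8 sums) and tested with edgeR 4.0.16 (quasi-likelihood, library as block, TMM, Benjamini-Hochberg, adjusted p under 0.05) on 7552 genes with at least 50 UMIs, leaving out Ikzf2 and Foxp3. DESeq2 1.42.0, limma 3.58.1, depth-matched and thinned cells were alternatives. The block pairs the 2 sides because both come from 1 library. The test was tried on simulated counts.

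Members and gene lists were chosen with earlier results of these data known. Named genes were the 12 highest and 12 lowest called genes with 1 direction in all 4 libraries, with and without depth matching. Receptor segments, ribosomal, mitochondrial and Y-linked genes, Xist, and names of Gm plus a number or ending in Rik were left out. The name 9930111J21Rik2 does not end in Rik, so that gene stayed in. Members of the lists were named as well. Promoter sequences are RefSeq's (GRCm38.p6).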

Additional observations from a re-analysis of the deposited data

Results flagged for a closer look

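The difference between the sides itself differed between colonized and germ-free libraries, by edgeR's interaction test, for 2 genes. For Penk, the interaction was 3.85 ± 0.65 on the log2 scale (adjusted p = 1.91e-05). It stood at 23.7, 24.1, 36.5 and 24.3 CPM with an Ikzf2 UMI and at 0, 6.44, 165 and 2.002 CPM without, and 3 cells held the 37 UMIs behind the value of 165. DESeq2 gave 1.86 (adjusted p = 0.9998). For Ly6a, the interaction was 0.96 ± 0.20 (adjusted p = 0.00633), and it was 0.58 in depth-matched cells (adjusted p = 0.9998).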

How the results depend on the processing

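The tested counts were 59 higher and 127 lower. They became 126 and 71 without TMM, 4 and 1 with no replicate block, 10 and 26 in cluster 0, 5 and 2 in cluster 3, 6 and 51 in cluster 6, 203 and 202 in Foxp3 cells of every cluster, 349 and 252 in cells with 0 Foxp3 UMIs, and 21 and 77 in cells matched on depth within cluster. The higher count was 14 with DESeq2 and 27 in thinned cells. Without the library block the pairing of the sides is lost. Leaving out 1 library gave 44 to 49 higher and 105 to 119 lower genes. Counting each cell with a UMI once in depth-matched cells gave 0 and 0 with edgeR, where 290 genes had an unadjusted p under 0.05. That setting, the matching within cluster, limma (44 and 104) and edgeR's newer quasi-likelihood method (63 and 131) were chosen after seeing the data. The cause of these changes was not tested.

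The microbiota interaction was called for 2 genes, and for 0 with DESeq2 (17 at an unadjusted p under 0.05) and 0 in thinned cells. Depth-matched cells gave 1 higher, Penk (adjusted p = 0.0021), and 1 lower. With at least 200 UMIs the 2 genes were Ly6a (adjusted p = 0.0122) and Ccr9 (adjusted p = 0.0387), and Penk was not tested. The genotype interaction was called for 0, and for 1 without TMM, 1 with at least 10 UMIs and 1 with no filter. That gene was Penk each time (edgeR adjusted p = 0.025, 0.0203 and 0.018). Its high value without an Ikzf2 UMI lay in 3 cells of the germ-free Foxp3CNS1- library. The shares of Foxp3 cells with an Ikzf2 UMI fell to 53.3%, 55.1%, 60.5% and 58.1% after thinning. In cells with 0 Foxp3 UMIs the log2 fold change had the other sign for Sostdc1 (-0.29), Nufip2 (-0.17), Tnfsf11 (-0.21), Bcl2a1d (-0.29), Gbp2 (0.22), Ifi47 (0.043), Gpr83 (1.05), Lrrc32 (1.09), Maf (-0.076), Lag3 (-0.14), Il2ra (0.99), Izumo1r (0.24) and Entpd1 (1.03). Klf2 had 0.048 in cluster 3 and Lag3 -0.26 in cluster 6. In the simulation 26.5% of genes changed 1.5-fold were recovered, so changes of that size were often missed at this depth.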
